A study of Mus musculus with 2 samples.

Results

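The 34 genes described here encode the digestive machinery of the lysosome. They were taken by gene symbol from a named list out of the 31053 genes in the deposited count files, and all 34 were found. They comprise 10 proteases, the cathepsins and legumain (Ctsa, Ctsb, Ctsc, Ctsd, Ctsh, Ctsk, Ctsl, Ctss, Ctsz, Lgmn), 6 other hydrolases (Hexa, Gla, Gusb, Neu1, Acp5, Lipa), the precursors Psap and Grn, the membrane proteins Lamp1, Lamp2, Cd63 and Cd68, the transport proteins Npc1, Npc2 and Mcoln1, and 7 subunits of the vacuolar proton pump (Atp6v0b, Atp6v0c, Atp6v0d1, Atp6v0d2, Atp6v1a, Atp6v1b2, Atp6v1h). Tfeb and Tfec complete the list: they encode transcription factors of lysosomal genes and are not lysosomal proteins themselves. The cells came from fibrosarcomas, tumours of connective tissue origin, grown under the skin of genetically matched C57BL/6 mice of wild-type genotype, and single-cell 3′ libraries were made from the digested tumours, 1 library per group. The library titled Control carries the treatment label "Erythrocyte injected", and the library titled Blood carries the label "PBS injected"; the series title describes the erythrocytes as autologous and given in buffered saline. Title and treatment contradict each other, so the libraries are called by their titles, and no difference between them is given here as an effect of injected erythrocytes. Both libraries share the genotype, the tumour type and the digestion, while the sources used here do not give the number or age of the animals, the site and time of injection, the tumour line or any cell sort.

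Lysosomes are acidic compartments in which proteins, lipids and sugars taken up by a cell are degraded. The vacuolar ATPase (V-ATPase) pumps protons into them, and cathepsins and other hydrolases are active at the resulting low pH. Macrophages rely on this system to degrade what they engulf, whereas osteoclasts, the bone-resorbing cells of the same lineage, place the pump and cathepsin K on the cell surface to dissolve bone. Transcription factors of the MiT/TFE family, to which Tfeb and Tfec belong, bind E-box sequences that occur near the start of many lysosomal genes.

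The 6 promoters printed below are shown because their genes stand for the groups that the results turn on. They belong to an aspartic protease, a membrane protein, 2 pump subunits, and Acp5 and Ctsk. Levels of Acp5 and Ctsk were far higher in osteoclast-like than in macrophage-like cells. Atp6v1a was also higher there, at 3.20 times the macrophage-like level titled Control and 2.64 times titled Blood. The printed promoters are not a comparison of motifs between groups of genes. RefSeq promoter windows on GRCm38.p6 were matched by symbol for 28 of the 34 genes, each window running from 250 bases before a start of transcription to 50 bases after it, and both strands were searched. The E-box CACGTG occurred in the windows of 10 of 28 genes (35.7%: Ctsa, Ctsd, Ctsl, Lgmn, Gla, Lamp1, Mcoln1, Atp6v0b, Atp6v0d1 and Atp6v1a), in 11 of 53 other lysosomal genes with a window (20.8%) and in 8.09% of all 27025 genes in the table. The longer palindrome TCACGTGA, which contains CACGTG, occurred in 6 of 28 (21.4%: Ctsa, Ctsd, Gla, Mcoln1, Atp6v0d1 and Atp6v1a), in 4 of 53 (7.55%) and in 1.12% of all genes. The related M-box TCATGTG occurred in 6 of 28 (Ctsa, Ctss, Gla, Acp5, Grn and Atp6v0c), against 4.31% of all genes. GAGGAAGT, a core of PU.1 sites, occurred in 4 of 28 (14.3%: Ctsc, Ctss, Gla and Gusb) against 3.69%, and the AP-1 motif TGANTCA in 3 of 28 (10.7%: Neu1, Psap and Cd68) against 8.97%. These matches are descriptions of the sequence and not measured binding. Each stretch below covers 250 bases upstream of the start and the first 20 transcribed bases, 5′ to 3′ on the strand of the gene, and capitals mark CACGTG, or in Acp5 the reverse complement of TCATGTG. Ctsd lies at chr7:142387808-142388077 on the minus strand, Lamp1 at chr8:13158911-13159180 on the plus strand, Atp6v0d1 at chr8:105566045-105566314 on the minus strand and Atp6v1a at chr16:44139240-44139509 on the minus strand. Acp5 is shown for 1 of its 3 annotated starts, at chr9:22130579-22130848 on the minus strand, and Ctsk, at chr3:95498960-95499229 on the plus strand, held none of these motifs.
Ctsd: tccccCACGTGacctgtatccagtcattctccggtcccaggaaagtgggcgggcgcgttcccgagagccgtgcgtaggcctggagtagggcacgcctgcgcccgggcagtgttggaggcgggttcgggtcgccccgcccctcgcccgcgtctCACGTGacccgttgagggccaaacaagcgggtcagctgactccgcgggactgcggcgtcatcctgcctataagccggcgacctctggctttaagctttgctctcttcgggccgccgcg
Lamp1: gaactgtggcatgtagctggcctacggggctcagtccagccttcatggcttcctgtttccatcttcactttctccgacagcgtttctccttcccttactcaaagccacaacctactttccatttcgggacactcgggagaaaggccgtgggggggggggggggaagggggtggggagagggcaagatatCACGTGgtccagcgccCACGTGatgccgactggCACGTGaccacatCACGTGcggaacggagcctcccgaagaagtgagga
Atp6v0d1: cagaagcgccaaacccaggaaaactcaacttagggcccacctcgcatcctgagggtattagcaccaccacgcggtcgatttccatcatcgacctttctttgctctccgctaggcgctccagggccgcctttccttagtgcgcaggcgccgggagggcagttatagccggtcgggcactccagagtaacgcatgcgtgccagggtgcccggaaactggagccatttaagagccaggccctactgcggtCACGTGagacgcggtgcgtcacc
Atp6v1a: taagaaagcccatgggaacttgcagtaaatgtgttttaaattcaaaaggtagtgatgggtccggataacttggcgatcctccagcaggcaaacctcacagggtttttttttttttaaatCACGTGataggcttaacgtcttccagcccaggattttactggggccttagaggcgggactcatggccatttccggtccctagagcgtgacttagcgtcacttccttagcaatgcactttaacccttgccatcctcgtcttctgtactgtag
Acp5: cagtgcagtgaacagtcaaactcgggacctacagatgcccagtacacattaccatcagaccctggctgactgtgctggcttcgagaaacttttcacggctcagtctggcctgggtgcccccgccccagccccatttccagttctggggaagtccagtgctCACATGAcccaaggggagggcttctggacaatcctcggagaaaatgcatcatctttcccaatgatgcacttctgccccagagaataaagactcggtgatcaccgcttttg
Ctsk: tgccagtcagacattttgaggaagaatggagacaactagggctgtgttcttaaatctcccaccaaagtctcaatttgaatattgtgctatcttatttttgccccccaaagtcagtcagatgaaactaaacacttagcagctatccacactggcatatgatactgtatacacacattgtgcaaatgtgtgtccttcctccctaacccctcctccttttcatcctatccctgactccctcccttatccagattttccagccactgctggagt
Lamp1 held 4 copies of CACGTG within the last 61 bases before its start, whereas Ctsd held 2, at 245 and 98 bases before its start. Atp6v0d1 held 1 copy that began 3 bases before the start, and Atp6v1a held 1 copy 131 bases before the start.

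The library titled Control held 9475 barcodes and 115272096 unique molecular identifiers (UMIs, each counting 1 captured transcript), and the library titled Blood held 12057 barcodes and 115066023 UMIs. After filtering and removal of predicted doublets, 8823 and 11341 cells remained, with medians of 9245 and 6577 UMIs per cell. The libraries shared 349 barcodes, of which 339 were kept in both and only 60 fell in the same cell class. The smaller copy of a shared barcode had a median of 1.95% of the UMIs of the larger copy, and leaving these barcodes out moved none of the 28 summary results that were recomputed. Macrophage-like cells were the largest class, with 5703 cells (64.6%) titled Control and 5974 (52.7%) titled Blood. Neutrophil-like cells numbered 129 and 1773 at medians of only 1962 and 1747 UMIs, and the osteoclast-like class held 70 and 57 cells at medians of 28955.5 and 24175 UMIs. Levels are summed UMIs of a class scaled to the same total in every class and library (CPM, the usual unit of scaled counts), and paired values are always in the order titled Control, titled Blood. Intervals are exact 95% intervals of counting error only: with 1 library per title, no difference between titles has a replicate check, and no p-value is given.

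The 34 genes together took 2.30% and 2.41% of all UMIs in macrophage-like cells and 2.87% and 2.80% in osteoclast-like cells, the highest shares of the 10 classes plotted, but the makeup of these shares differed. In macrophage-like cells the cathepsins and legumain made up 12962 and 13558 CPM of the summed 22992 and 24112 CPM. In osteoclast-like cells the cathepsin sum was 10290 and 10275 CPM, while the 6 other hydrolases reached 9397 and 9146 CPM against 1137 and 1092 CPM in macrophage-like cells. The 7 pump subunits summed to 3351 and 3115 CPM in osteoclast-like cells, to 943 and 1166 CPM in neutrophil-like cells and to 883 and 945 CPM in macrophage-like cells. Classical monocyte-like cells had 14742 and 14199 CPM for the whole list and conventional dendritic cell (DC)-like cells 8700 and 7630 CPM. T cell-like and NK cell-like cells had the lowest sums, 2597 and 2540 CPM and 2423 and 2470 CPM.

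**Figure D1:**
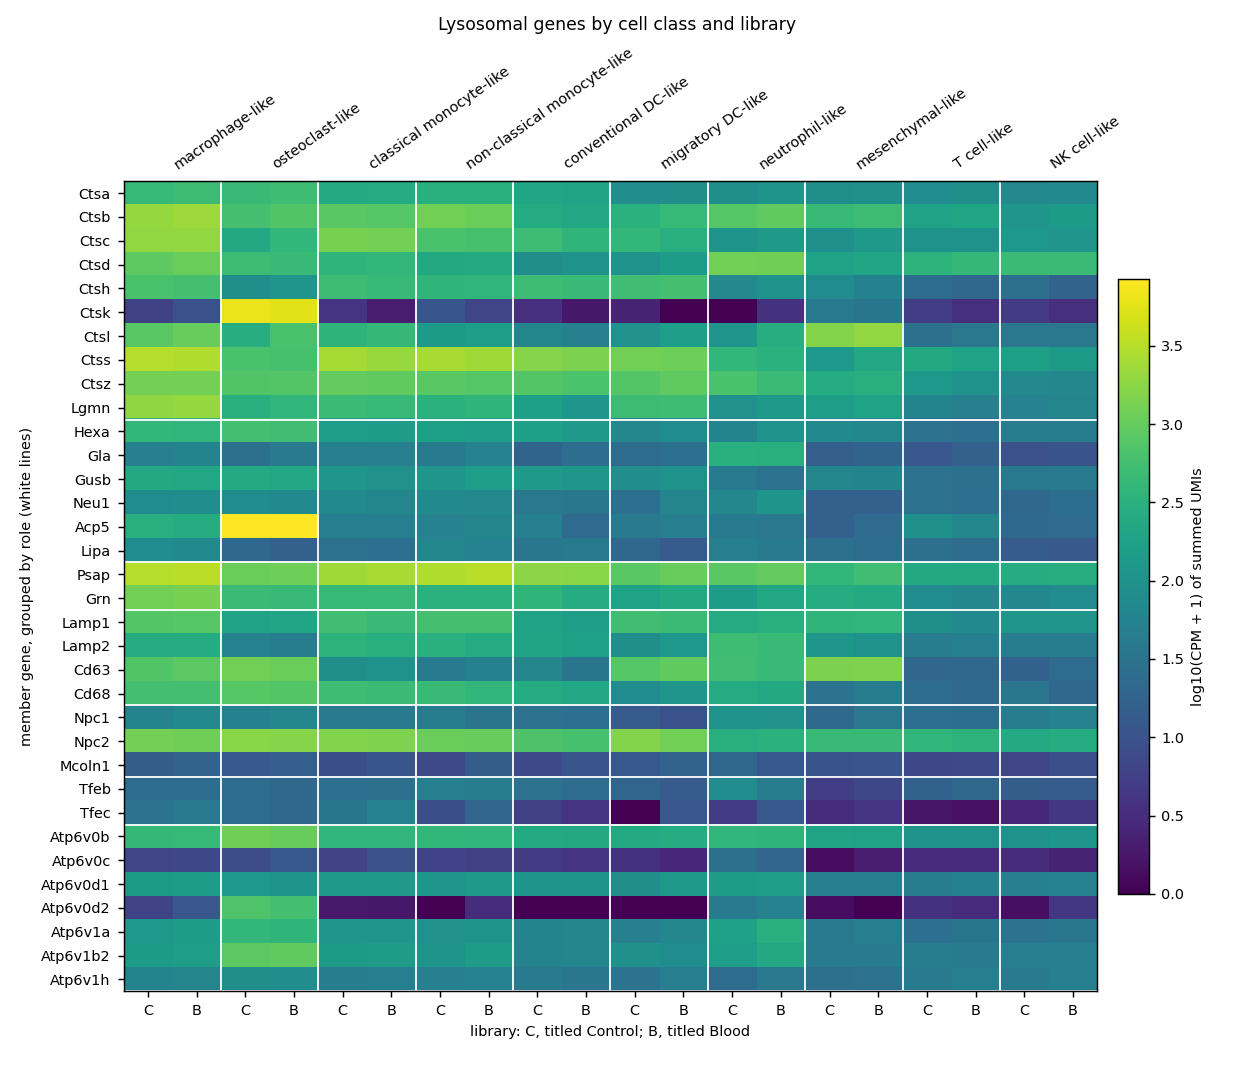
Level of each of the 34 genes (rows, grouped by role) in 10 cell classes (columns), as log10 of CPM + 1 by colour, with the library titled Control (C) and the library titled Blood (B) side by side. Ctsk, Acp5 and Atp6v0d2 stand out in osteoclast-like cells, and Ctsl and Cd63 are highest in mesenchymal-like cells in both libraries.

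For 29 of the 34 genes the same class had the highest level in both libraries. Osteoclast-like cells were highest for 11 genes (Ctsa, Ctsk, Hexa, Acp5, Cd68, Npc2, Atp6v0b, Atp6v0d2, Atp6v1a, Atp6v1b2, Atp6v1h) and macrophage-like cells for 9 (Ctsb, Ctsc, Ctss, Ctsz, Lgmn, Lipa, Psap, Grn, Lamp1). Neutrophil-like cells were highest for 6 (Ctsd, Gla, Lamp2, Npc1, Atp6v0c, Atp6v0d1), mesenchymal-like cells for Ctsl and Cd63, and classical monocyte-like cells for Tfec. The highest class differed between libraries for Ctsh, Gusb, Neu1, Mcoln1 and Tfeb. These ranks compare levels alone, and some were near-ties. Ctsa in osteoclast-like cells was 1.06 (0.994 to 1.14) and 1.03 (0.955 to 1.11) times its macrophage-like level. Atp6v0d1 titled Control stood at 146 CPM in neutrophil-like cells, from 38 counts, against 138 CPM in macrophage-like cells. Free transcripts and undetected doublets can add macrophage RNA to other classes, and their parts were not tested. The C1q genes, which are macrophage genes, stood at 2.35% and 1.83% of the macrophage-like level in T cell-like cells and at 30.7% and 21.4% in the few B cell-like cells. Scaled by that share, the macrophage-like level was exceeded by 32 and 33 of 34 genes in T cell-like cells, by 31 and 34 in neutrophil-like cells, but by only 12 and 22 in the 37 and 60 B cell-like cells, whose levels are therefore not described gene by gene.

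The cathepsins divided into broad and restricted members. Ctss, a cysteine protease that trims the invariant chain in antigen-presenting cells, stood at 3075 and 2928 CPM in macrophage-like cells, at 2596 and 2306 CPM in non-classical monocyte-like cells and at 2517 and 2132 CPM in classical monocyte-like cells. It was 1649.9 and 1406 CPM in conventional DC-like cells and 125 and 225 CPM in mesenchymal-like cells, so it followed the myeloid classes. Ctsb, a broadly expressed cysteine protease, stood at 2045 and 2239 CPM in macrophage-like cells against 1239 and 1109.9 CPM in non-classical monocyte-like cells, the next highest class. Ctsc, which activates serine proteases of immune granules, reached 1941 and 1934 CPM in macrophage-like cells and 1321 and 1276 CPM in classical monocyte-like cells. Lgmn, the asparaginyl protease legumain, was 1856 and 2036 CPM in macrophage-like cells and at most 483 and 512 CPM in any other class of the plotted 10, in migratory DC-like cells. Both were thus macrophage-high, but Ctsc extended to monocytes and Lgmn much less so.

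Ctsz, a carboxypeptidase, was spread more evenly, at 1262 and 1261 CPM in macrophage-like cells and 969 and 935 CPM in classical monocyte-like cells. Ctsh, an aminopeptidase, was 620.1 and 579 CPM in macrophage-like, 536 and 583 CPM in migratory DC-like and 496 and 465 CPM in conventional DC-like cells, so that the top class changed with the library. Ctsa, a carboxypeptidase that also protects neuraminidase, was 432 and 485 CPM in macrophage-like and 459.8 and 501 CPM in osteoclast-like cells. Ctsd, the main aspartic protease, was highest in neutrophil-like cells at 1217 and 1170.03 CPM, against 899.5 and 1058 CPM in macrophage-like and 473 and 477 CPM in NK cell-like cells. Among the cathepsins on the list described here, Ctsd had the highest level in NK cell-like and T cell-like cells (349.95 and 409 CPM). Cathepsins outside this list were not ranked with them. The 3′ UMIs count molecules and need no length scaling. Ctsl, a potent cysteine endoprotease, was highest in mesenchymal-like cells at 1589 (1556 to 1622) and 1941 (1894 to 1988) CPM, against 826 and 1029 CPM in macrophage-like cells. Its levels in the DC-like classes were 62.5 and 50.3 CPM (conventional) and 95.9 and 159.9 CPM (migratory). Ctsk, the collagen-degrading cathepsin of osteoclasts, reached 6499 (6387 to 6612) and 5716 (5588 to 5845) CPM in osteoclast-like cells, 37.3 and 32.8 CPM in mesenchymal-like cells and 4.88 and 8.77 CPM in macrophage-like cells.

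Among the other hydrolases, Acp5, the tartrate-resistant acid phosphatase used to stain osteoclasts, stood at 8463 (8335 to 8592) and 8259 (8106 to 8415) CPM in osteoclast-like cells and 296 and 270.3 CPM in macrophage-like cells. It was at or under 91.1 CPM in each other plotted class of the library titled Control and at or under 62.1 CPM in those of the library titled Blood. Hexa, a subunit of beta-hexosaminidase, was 398 and 379 CPM in macrophage-like and 564 and 534 CPM in osteoclast-like cells. Gusb, beta-glucuronidase, was 231 and 226 CPM and 247 and 221 CPM in those classes. Both glycosidases thus differed by less than 1.5-fold between these classes, in contrast to Acp5. Gla, alpha-galactosidase A, was highest in neutrophil-like cells at 316 and 293 CPM against 50.7 and 58.5 CPM in macrophage-like cells. Neu1, lysosomal sialidase, was 80.04 and 83.7 CPM in macrophage-like cells and 65.4 and 108 CPM in neutrophil-like cells. Lipa, the acid lipase that frees cholesterol from its esters, was 80.8 and 73.98 CPM in macrophage-like cells and 19.2 and 14.9 CPM in osteoclast-like cells.

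Psap, whose product yields the saposins that activate glycolipid hydrolases, was 3065 and 3353 CPM in macrophage-like and 2832 and 3154 CPM in non-classical monocyte-like cells, and in the latter it was the most abundant of the 34 transcripts. Grn, which encodes progranulin, was 1246 and 1319 CPM in macrophage-like cells and 473 and 446 CPM in osteoclast-like cells. Of the membrane proteins, Lamp1 stood at 750.4 and 793 CPM and Lamp2 at 268 and 265 CPM in macrophage-like cells, and Lamp2 was highest in neutrophil-like cells at 500.5 and 459.8 CPM. Cd63, a tetraspanin of late endosomes and granules, was 728 and 869 CPM in macrophage-like, 1214 and 1125 CPM in osteoclast-like and 1437 and 1469 CPM in mesenchymal-like cells. Across the DC-like classes it was split, with 767 and 936 CPM in migratory and 60 and 32.9 CPM in conventional DC-like cells. Cd68, a macrophage sialomucin, was 556 and 563 CPM in macrophage-like, 815 and 749 CPM in osteoclast-like and 515 and 468 CPM in classical monocyte-like cells. Lamp1, Lamp2 and Cd68 were all lower in both DC-like classes than in macrophage-like cells, with Lamp1 at 185 and 152 CPM in conventional and 537 and 471 CPM in migratory DC-like cells.

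Npc2, the soluble sterol carrier, was 1272 and 1204 CPM in macrophage-like, 1709 and 1625 CPM in osteoclast-like and 1579 and 1215 CPM in migratory DC-like cells. Npc1, the membrane protein that exports the cholesterol Npc2 delivers, was 56.3 and 72.7 CPM in macrophage-like and 100.1 and 97.1 CPM in neutrophil-like cells. Mcoln1, a lysosomal calcium channel, was low in every class and stood at 13.4 and 15.9 CPM in macrophage-like cells. Tfeb was 23.2 and 23.5 CPM in macrophage-like cells, 48.5 and 45.4 CPM in non-classical monocyte-like cells and 77 and 44.02 CPM in neutrophil-like cells. Tfec, a family member of restricted expression, was 30.6 and 39.9 CPM in macrophage-like and 33.2 and 55.1 CPM in classical monocyte-like cells, and 0.751 and 0.507 CPM in T cell-like cells. Tfec was thus highest in classical monocyte-like and next highest in macrophage-like cells in both libraries, whereas Tfeb was detected across classes. Other myeloid classes had less Tfec. Non-classical monocyte-like, neutrophil-like and both DC-like classes were at least 1.5-fold below macrophage-like cells in both libraries.

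For the proton pump, Atp6v0b, a subunit of the membrane ring, was 413 and 424 CPM in macrophage-like cells and 1182 and 1046 CPM in osteoclast-like cells. Atp6v1a, the catalytic subunit, was 124 and 142 CPM in macrophage-like, 397 and 375 CPM in osteoclast-like and 177 and 293 CPM in neutrophil-like cells. Atp6v1b2, its regulatory partner in the catalytic head, was 139 and 158 CPM, 851 and 936 CPM and 154 and 237 CPM in the same classes. All of these subunits were thus highest in osteoclast-like cells. Atp6v1h, which regulates the coupling of the head to the membrane part, was 57.8 and 61.2 CPM in macrophage-like and 85.6 and 81.98 CPM in osteoclast-like cells. Atp6v0d1, the widely expressed form of the d subunit, was 138 and 142 CPM in macrophage-like cells and between 45.4 CPM (T cell-like, titled Control) and 160.1 CPM (neutrophil-like, titled Blood) over the plotted classes. Atp6v0d2, the form of the d subunit known from osteoclasts, was 5.30 and 10.8 CPM in macrophage-like cells, 38.5 and 54.01 CPM in neutrophil-like cells and 703 (667 to 741) and 557 (518 to 599) CPM in osteoclast-like cells. Atp6v0c, the main ring subunit, stood at only 5.67 and 6.08 CPM in macrophage-like cells. The annotation holds 2 pseudogene copies of it that the count files do not list, and whether they bear on this level was not tested.

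The osteoclast-like class took its name from a marker list, so the levels of those markers describe the class and are not independent of its name. Of the 13 markers that are not among the 34 genes, 12 were at least 1.5 times the macrophage-like level in both libraries, and the exception, Calcr, had 4 counts titled Control and none titled Blood. Mmp9, the gelatinase of osteoclasts, stood at 3493 and 3876 CPM, and Ocstamp and Dcstamp, which act in osteoclast fusion, at 315 and 253 CPM and 149.9 and 128 CPM. The C1q genes stood at 6.35% and 12.2% of their macrophage-like level. Set against macrophage-like cells of the same library, 6 of the 34 genes were at least 1.5-fold higher in osteoclast-like cells in both libraries (Ctsk, Acp5, Atp6v0b, Atp6v0d2, Atp6v1a, Atp6v1b2) and 13 at least 1.5-fold lower (Ctsb, Ctsc, Ctsd, Ctsh, Ctsl, Ctss, Ctsz, Lgmn, Lipa, Psap, Grn, Lamp1, Lamp2). By library, 7 of 33 and 6 of 34 measured genes were higher, against 17.1% of all measured genes titled Control and 18.8% titled Blood, and 14 and 14 were lower, against 20.7% and 20.6%. The share that was higher was thus near that of all genes, and the share that was lower was above it. The count of higher genes titled Blood rested on the processing: it was 11 with the 34 genes kept in the clustering and 12 with CPM averaged over cells. The median log2 ratio of the measured genes among the 34 was -0.15 and -0.20, and that of all measured genes -0.02 and 0.05. A gene counted as measured at 10 CPM and 10 counts in either class, and log2 ratios and the 1.5-fold limit were taken after adding 5 CPM to each value, which understates the change of low genes.

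The largest ratios belonged to Ctsk, Atp6v0d2 and Acp5, all known from bone resorption. Ctsk was 1333 (1209 to 1473) and 652 (604 to 705) times its macrophage-like level, and the gene lies at chr3:95499256-95509362 (GRCm38, GENCODE M21, plus strand). Atp6v0d2 (chr4:19876841-19922605, minus strand) was 133 (119 to 148) and 51.5 (46.6 to 56.8) times its macrophage-like level. Acp5 (chr9:22126727-22135711, minus strand) was 28.5 (27.99 to 29.1) and 30.6 (29.9 to 31.3) times that level. The ratios of Ctsk and Atp6v0d2 were larger titled Control, where their macrophage-like levels were lower and their osteoclast-like levels higher. Among the pump subunits, Atp6v1b2 was 6.13 and 5.91 times, Atp6v1a 3.20 and 2.64 times and Atp6v0b 2.86 and 2.47 times the macrophage-like level, and Atp6v1h 1.48 and 1.34 times. Atp6v0d1 did not share in this, at 0.898 and 0.755 times.

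The proteases of the general endolysosomal set lay on the other side. Ctsc stood at 0.119 and 0.202 times the macrophage-like level, Ctsh at 0.142 and 0.194 times, Lgmn at 0.156 and 0.191 times and Ctss at 0.202 and 0.209 times. Ctsb (0.291 and 0.322 times), Ctsl (0.333 and 0.615 times), Ctsd (0.549 and 0.423 times) and Ctsz (0.585 and 0.597 times) were lower by smaller factors. Ctsa was level with macrophage-like cells at 1.06 and 1.03 times. Outside the proteases, Lipa was 0.238 and 0.201 times, Psap 0.356 and 0.345 times, Grn 0.380 and 0.338 times, Lamp1 0.246 and 0.265 times and Lamp2 0.204 and 0.169 times the macrophage-like level. The membrane proteins Cd63 and Cd68 were on the higher side, at 1.67 and 1.29 times and 1.46 and 1.33 times. Gla stood at 0.529 and 0.714 times, Neu1 at 0.981 and 0.908 times, Gusb at 1.07 and 0.975 times, Hexa at 1.41 and 1.41 times and Npc2 at 1.34 and 1.35 times. Tfeb was 1.03 and 0.823 times and Tfec 0.760 and 0.486 times the macrophage-like level, Npc1 0.926 and 0.882 times and Mcoln1 0.832 and 0.889 times.

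**Figure D2:**
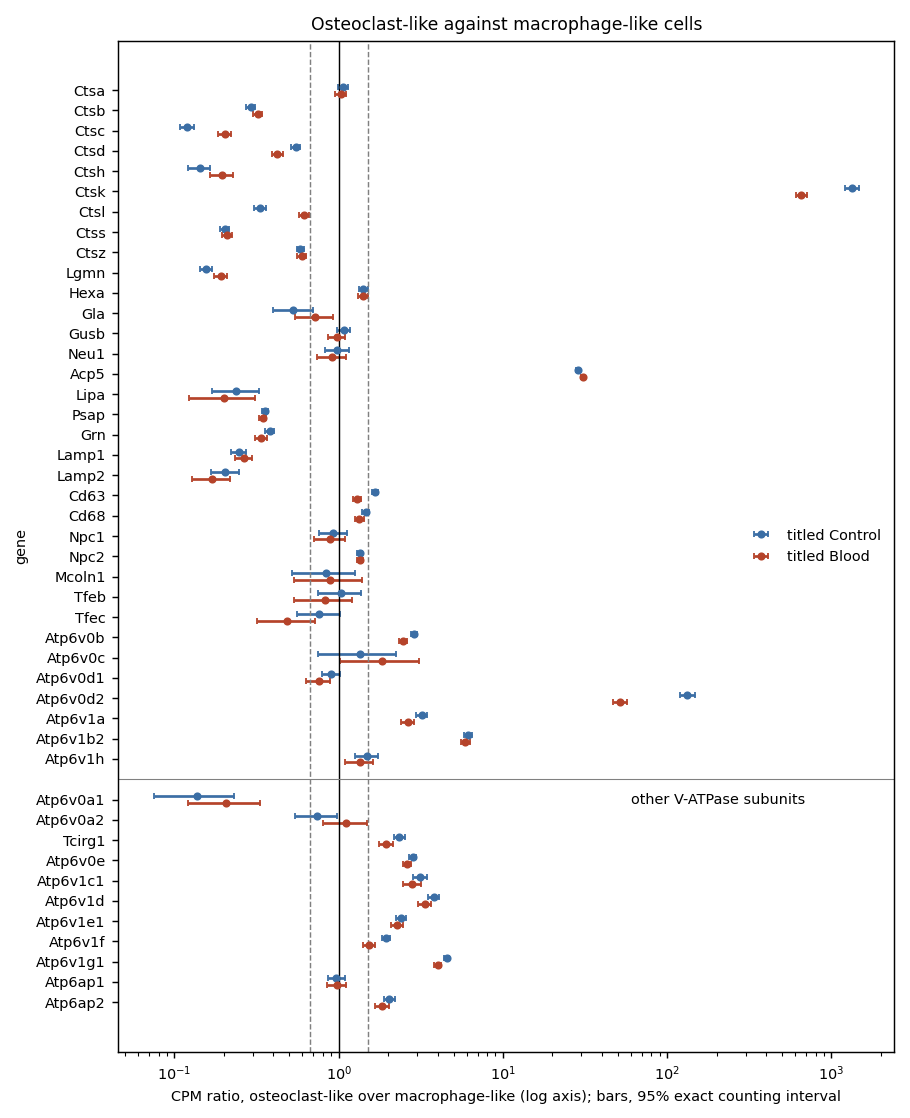
CPM in osteoclast-like cells divided by CPM in macrophage-like cells of the same library, on a log axis, for the 34 genes and 11 other V-ATPase genes, with points for each library, 95% counting intervals as bars and dashed lines at 1.5-fold. Ctsk, Atp6v0d2 and Acp5 lie far to the right, and most cathepsins lie to the left of 1.

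Most other V-ATPase genes were likewise higher in osteoclast-like cells. Of 11, 8 were at least 1.5-fold higher in osteoclast-like than in macrophage-like cells in both libraries (Tcirg1, Atp6v0e, Atp6v1c1, Atp6v1d, Atp6v1e1, Atp6v1f, Atp6v1g1, Atp6ap2) and 1 was lower (Atp6v0a1), beside the 17.1% and 18.8% of all measured genes that were higher and the 20.7% and 20.6% that were lower. Their median log2 ratio was 1.20 and 0.94, against 1.57 and 1.29 for the measured pump subunits among the 34. Tcirg1, the a3 subunit required for bone resorption, was 2.34 and 1.94 times its macrophage-like level, at 399.5 and 331 CPM, while Atp6v0a1, the a1 form, was 0.137 and 0.207 times, at 7.09 and 12.7 CPM. Of 28 other lysosomal hydrolases, 4 were higher in both libraries (Glb1, Arsb, Smpd1, Ctsf), and Man2b1, Ppt1, Naaa, Acp2, Pla2g15 and Galc were among those lower. Arsb, the arylsulfatase that acts on dermatan and chondroitin sulfate, was 18.5 and 21.9 times its macrophage-like level, and these hydrolases were named after their values were seen. Mitf, the family member that drives osteoclast genes, was 3.82 and 3.35 times its macrophage-like level, whereas Tfe3 was 0.540 and 0.409 times. Among cathepsin inhibitors, Cstb was 2.48 and 1.90 times and Cst3 1.32 and 1.20 times.

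The paired subunits gave a measure within each class that does not depend on its depth. Atp6v0d2 made up 85.01% (83.2 to 86.7) and 83.9% (81.3 to 86.2) of the UMIs of both d subunits in osteoclast-like cells. It made up 3.69% (3.37 to 4.04) and 7.08% (6.64 to 7.55) in macrophage-like cells, with intervals that did not overlap between titles. In neutrophil-like cells the share was 20.8% (10.5 to 34.99) and 25.2% (22.0 to 28.6), and in conventional DC-like cells no Atp6v0d2 UMI was found among 301 and 264 UMIs of the pair, with exact intervals that reach 1.22% and 1.39% (3 counts of these totals would be 0.997% and 1.14%). Osteoclast-like cells thus used mainly d2 transcripts, and every other class mainly d1. Tcirg1 made up 98.3% and 96.3% of the UMIs of Tcirg1 and Atp6v0a1 in osteoclast-like cells, 76.7% and 73.6% in macrophage-like cells and 89.0% and 86.6% in T cell-like cells.

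**Figure D3:**
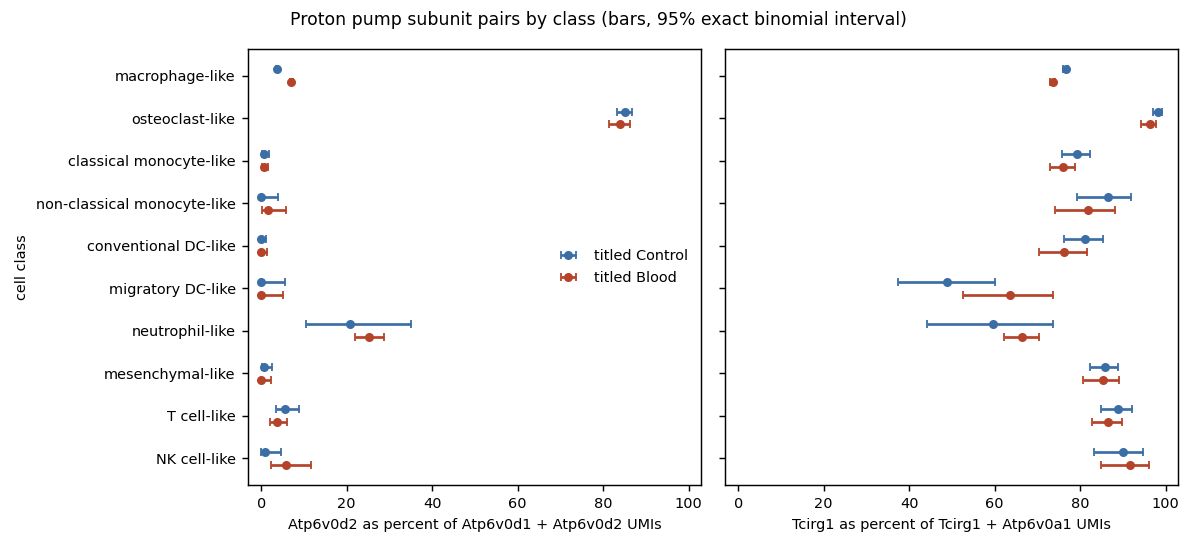
Atp6v0d2 as a percentage of Atp6v0d1 plus Atp6v0d2 UMIs, and Tcirg1 as a percentage of Tcirg1 plus Atp6v0a1 UMIs, by cell class and library, with exact 95% binomial intervals. The d2 share is above 80% in osteoclast-like cells only, whereas the Tcirg1 share is high in most classes.

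Counted by cell, a Ctsk UMI was found in 78.6% and 75.4% of osteoclast-like cells, 5.93% and 4.65% of macrophage-like cells and 2.36% and 1.32% of T cell-like cells. After thinning every cell to 1500 UMIs, which left out 7 and 12 osteoclast-like, 117 and 254 macrophage-like and 55 and 61 T cell-like cells, these shares were 68.3% and 53.3%, 0.841% and 1.24% and 0.619% and 0.414%. T cell-like cells are not known to express Ctsk, so their share is given as a reference. Whether it came from free RNA or from undetected doublets was not tested. The macrophage-like share was near this reference titled Control and above it titled Blood. Thinned shares for Acp5 were 95.2% and 82.2% in osteoclast-like, 26.98% and 25.02% in macrophage-like and 12.7% and 9.45% in T cell-like cells. For Atp6v0d2 they were 47.6% and 48.9%, 0.734% and 1.64% and 0.442% and 0.345%. Osteoclast-like cells therefore carried all of these transcripts in a larger share of cells than macrophage-like cells at equal depth. A Ctsk UMI was not found in every osteoclast-like cell, however, and summed CPM give more weight to cells with more UMIs. The Ctsk level of the class is thus not the level of each of its cells. Psap, by contrast, was found in 94.3% and 95.9% of thinned macrophage-like cells and 30.8% and 32.6% of thinned T cell-like cells.

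Macrophage-like cells fell into 8 clusters, which were made without the 34 genes and are called here by number and leading genes. Over the clusters, the highest level of a gene was a median of 1.99 and 2.16 times its lowest. Atp6v0d2 spanned 27.6-fold and 17.04-fold, Ctsk 8.28-fold and 145-fold (the latter over a lowest level that rests on 1 count), Acp5 7.22-fold and 7.85-fold, Ctsl 4.77-fold and 4.01-fold and Ctsd 4.63-fold and 3.99-fold. Ctsh, at 1.38-fold and 1.33-fold, and Tfeb, at 1.35-fold and 1.45-fold, varied little. Cluster 3, led by Ccl8 and Folr2, held 731 and 1134 cells and had the highest level in both libraries of Ctsa, Ctsz, Hexa, Grn, Cd63, Cd68 and Atp6v0b. Cluster 8, led by genes that include Hmox1, Mmp12 and Cd36, held 274 and 707 cells and had the highest level of Ctsk, Ctsl, Gla, Atp6v0d2 and Atp6v1a. Cluster 6, with Ifit2 among its leading genes, and cluster 5, in which the proliferation gene Mki67 stood at 527 and 546 CPM, were the highest for none of the 34 in both libraries.

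Cluster 3 differed from the other macrophage-like cells in the upward direction only. Of 32 and 33 measured genes, 9 and 9 were at least 1.5-fold higher, against 3.72% and 3.19% of all measured genes, and none was lower, against 5.32% and 5.23%. The 8 that were higher in both libraries were Ctsb, Ctsd, Lgmn, Hexa, Grn, Lamp1, Cd63 and Atp6v0d2. Ctsd was 2.73 and 2.10 times the level of the other macrophage-like cells, at 1939 and 1771 CPM. Ctsb was 2.12 and 1.87 times, at 3696 and 3479.8 CPM, and Cd63 1.996 and 2.01 times, at 1259.6 and 1413 CPM. Atp6v0d2 was 3.43 and 3.69 times, at 13.2 and 24.6 CPM. The remaining genes of the 8 lay between 1.54 and 1.67 times, and the median log2 ratio of the measured genes was 0.35 and 0.32. The median UMI count of cluster 3 was 17806 and 16483.5, above that of the class, and the part of depth was not tested here either.

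In cluster 8 the pattern was mixed and of larger range. Of 33 and 33 measured genes, 11 and 9 were at least 1.5-fold higher than in the other macrophage-like cells, against 8.08% and 9.7% of all measured genes, and 2 and 3 were lower, against 16.5% and 13.3%. Ctsl was 2.86 and 2.81 times the other macrophage-like level, at 2207 and 2574 CPM, the highest of any macrophage-like cluster. Lipa was 3.41 and 2.31 times, at 253 and 157 CPM, and Gla 2.65 and 2.44 times, at 127 and 129.9 CPM. The cluster thus joined a cholesterol ester lipase and a glycolipid hydrolase to the endoproteases. Psap was 1.92 and 1.91 times, Ctsd 2.64 and 2.13 times, Atp6v1a 2.10 and 1.67 times and Ctsb 1.51 and 1.54 times. The osteoclast-associated genes Ctsk and Atp6v0d2 stood at 24.7 and 34.7 CPM and 35.7 and 34.2 CPM, far under the osteoclast-like levels of 6499 and 5716 CPM and 703 and 557 CPM. Ctsc and Gusb were lower in both libraries, at 0.648 and 0.620 times and 0.595 and 0.504 times. The median UMI count of cluster 8 was 10179 and 6387, under that of the class, and the part of depth in these differences was not tested.

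In cluster 12, led by Retnla, 4 of 31 measured genes titled Control and 11 of 34 titled Blood were at least 1.5-fold higher than in the other macrophage-like cells, against 11.6% and 12.6% of all measured genes, and 2 and 2 were lower, against 8.3% and 12.4%. The median log2 ratio of the measured genes was 0.20 and 0.38, and with CPM averaged over cells the counts titled Control were 8 higher and 1 lower. Titled Control the share that was higher was thus near that of all genes. Acp5 was 54.6 and 46.2 CPM, or 0.180 and 0.167 times the other macrophage-like cells, while Lamp2 was 1.85 and 1.93 times, Ctsb 1.84 and 2.42 times and Atp6v1b2 1.56 and 1.85 times. Cluster 1 held the lowest levels of several genes. In it, although it shares Mmp12, Mmp13 and Arg1 among its leading genes with cluster 8, Ctsb was 1103 and 1189.9 CPM, Grn 813 and 852 CPM and Cd63 395 and 481 CPM, the lowest of the 8 clusters in both libraries. Ctsc was highest in cluster 11, led by Cxcl9, at 2266 and 2355 CPM.

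**Figure D4:**
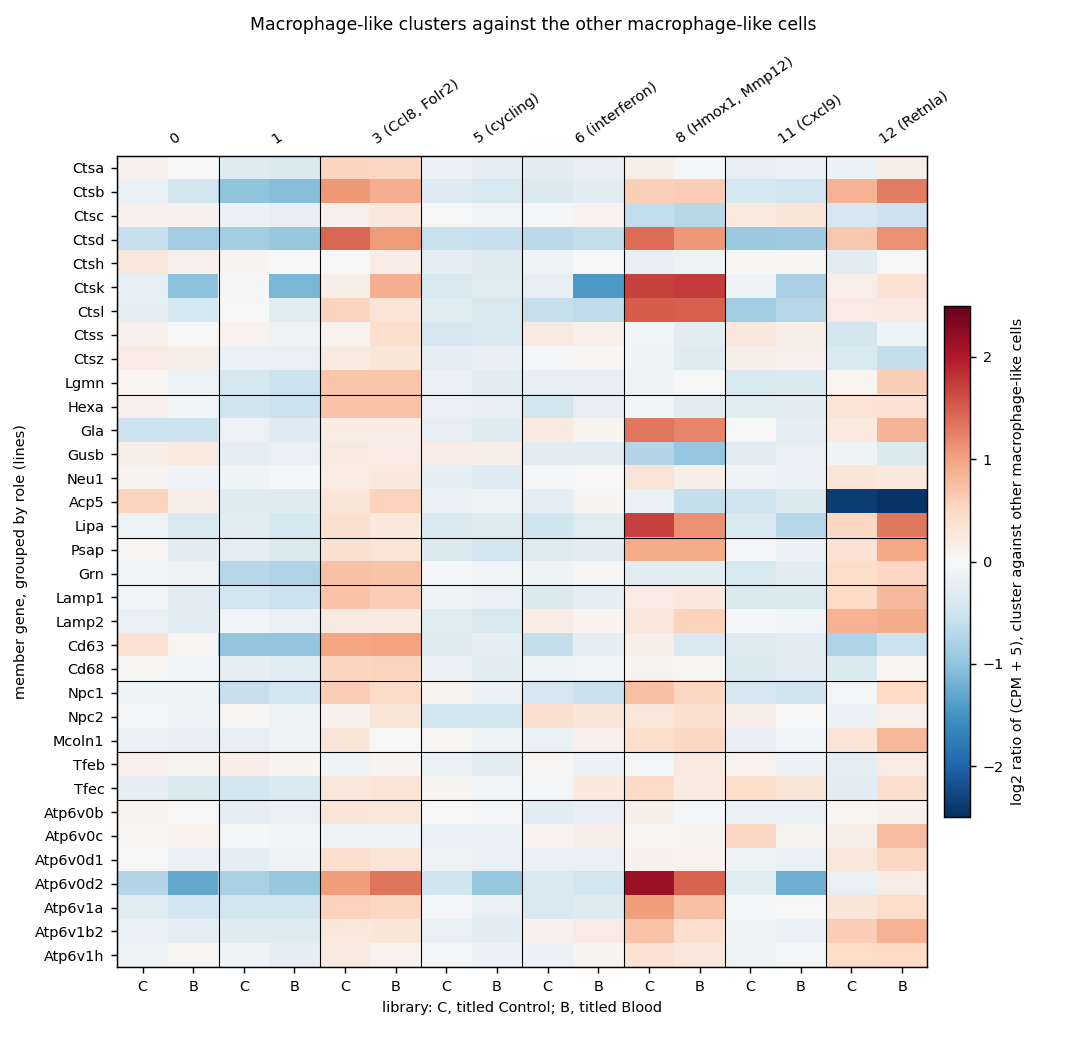
Log2 ratio of CPM + 5 in each of 8 macrophage-like clusters against the other macrophage-like cells, for the 34 genes (rows) and both libraries (columns within each cluster). Cluster 3 is higher for most genes, cluster 8 for Ctsl, Gla, Lipa and Atp6v0d2, and cluster 12 is low for Acp5.

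Between titles, the macrophage-like levels of the 34 genes were close. The ratio of the library titled Blood to the library titled Control was above 1 for 24 genes and below 1 for 10. Counting intervals lay above 1 for 21, below 1 for 6 (Ctsh, Ctss, Hexa, Acp5, Lipa, Npc2) and held 1 for 7 (Ctsc, Ctsz, Gusb, Lamp2, Cd68, Tfeb, Atp6v0c). These intervals are narrow because of depth, and they do not cover differences between tumours. Of the 32 measured genes, 1 was at least 1.5-fold higher titled Blood, against 0.515% of all 7770 measured genes, and none was lower, against 0.849%. The median log2 ratio of the measured genes was 0.08, and that of all measured genes was 0.01. The gene past the limit was Atp6v0d2, at 5.30 (4.82 to 5.81) and 10.8 (10.1 to 11.6) CPM, with the ratio 2.05 (1.82 to 2.30). Clusters 3 (13.2 and 24.6 CPM) and 12 (4.08 and 13 CPM) had more of it titled Blood, but cluster 8 (35.7 and 34.2 CPM) did not. With the clusters given equal weight in both libraries its log2 ratio was 0.36 in place of 0.62, under the 1.5-fold limit. Ctsk had a ratio of 1.80 (1.59 to 2.03), at 4.88 and 8.77 CPM, under the 10 CPM required of a measured gene.

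The other 31 measured genes had ratios between 0.912 and 1.30. The largest were Tfec at 1.30 (1.24 to 1.37), Npc1 at 1.29 (1.24 to 1.34) and Ctsl at 1.25 (1.23 to 1.26), followed by Cd63 at 1.19 (1.18 to 1.21), Mcoln1 at 1.19 (1.10 to 1.29) and Ctsd at 1.18 (1.17 to 1.19). The smallest were Acp5 at 0.912 (0.895 to 0.928), Lipa at 0.916 (0.885 to 0.948) and Ctsh at 0.934 (0.923 to 0.946). Ctss (0.952), Hexa (0.952), Npc2 (0.947), Gusb (0.982), Lamp2 (0.988), Ctsc (0.996) and Ctsz (0.999) were also under 1. By role, the median log2 ratio was 0.13 for the cathepsins and legumain, -0.05 for the other hydrolases, 0.11 for Psap and Grn, 0.05 for the membrane proteins, 0.19 for Npc1, Npc2 and Mcoln1, 0.18 for Tfeb and Tfec and 0.13 for the pump subunits.

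**Figure D5:**
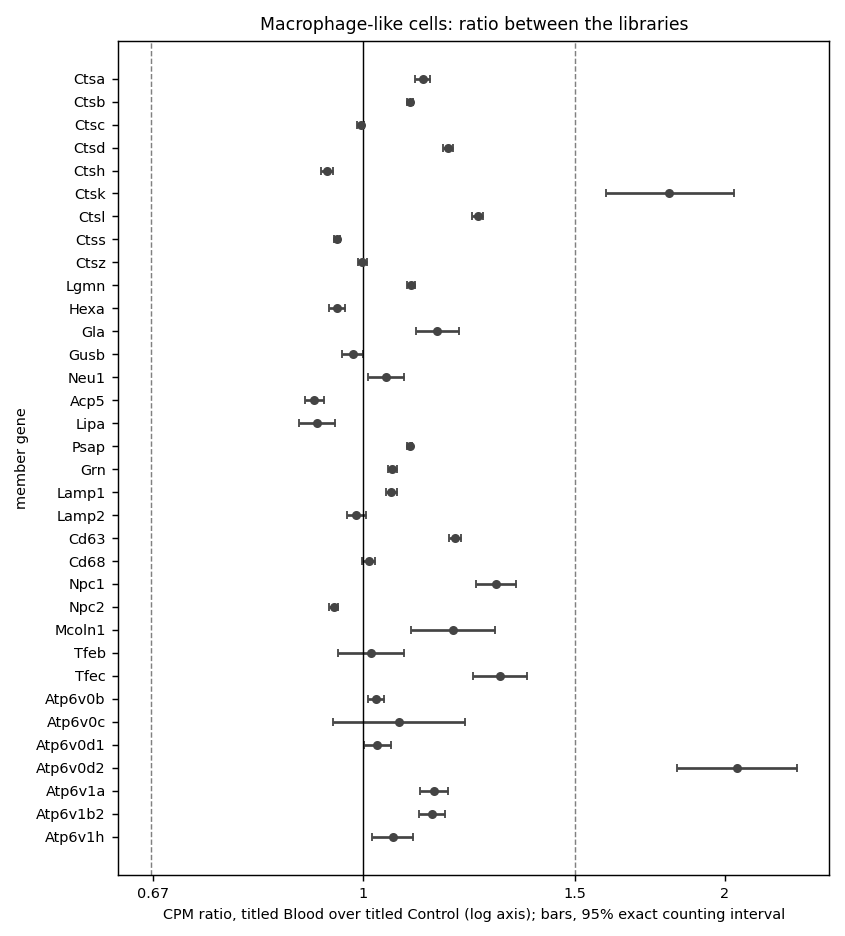
CPM of the library titled Blood divided by CPM of the library titled Control in macrophage-like cells for each of the 34 genes, on a log axis, with 95% counting intervals as bars and lines at 0.67, 1 and 1.5. Atp6v0d2 and Ctsk lie beyond 1.5, and the other genes between 0.912 and 1.30.

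Further lysosomal genes were as close between titles in macrophage-like cells. Of 69 other lysosomal genes in the files, 56 were measured, 1 was at least 1.5-fold higher titled Blood and none was lower. The higher gene was Gpnmb, a membrane glycoprotein gene induced by MiT/TFE factors, at 13.7 and 23.98 CPM, with the ratio 1.76 (1.63 to 1.89). Median log2 ratios were 0.08 for 24 measured hydrolases of 28, 0.05 for 11 of 11 V-ATPase genes, 0.03 for 16 of 18 membrane and sorting genes, 0.06 for 2 of 9 cystatins and 0.13 for 3 of 3 further MiT/TFE genes. Within these lists, Sgsh, the heparan sulfatase, had a ratio of 1.24, and Laptm4a, a lysosomal transmembrane protein gene, 0.861. Cst3, the secreted inhibitor cystatin C, stood at 1955 and 1804 CPM, and Cstb, the intracellular inhibitor, at 724 and 856 CPM. Tcirg1 stood at 171 and 170.4 CPM, Tfe3 at 56.3 and 62.02 CPM and Mitf at 24.4 and 24.95 CPM.

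Cluster 12 was the macrophage-like cluster in which the 34 genes differed most between titles. Of 34 measured genes, 11 were at least 1.5-fold higher titled Blood, against 4.52% of all 8011 measured genes, and none was lower, against 7.18%, with a median log2 ratio of 0.39 against -0.03 over all genes. Psap stood at 3929.6 and 6371 CPM, with the ratio 1.62 (1.58 to 1.66). Ctsd stood at 1416 and 2286 CPM and Lgmn at 1929 and 3084 CPM, with ratios of 1.61 (1.54 to 1.69) and 1.60 (1.54 to 1.66). Npc1, at 54.2 and 103.1 CPM, Gla, at 60.7 and 107 CPM, Tfec, at 24.9 and 53.5 CPM, and Lipa, at 116 and 184 CPM, were higher as well. The remaining genes of the 11 were Atp6v0d2, Ctsk, Mcoln1 and Atp6v0c, all low transcripts. The makeup of cluster 12, whose median UMI counts were 7401 and 4617, differed between titles along with them: Retnla, its leading gene, stood at 4032 and 596 CPM, C1qa at 3839 and 1850.2 CPM and Gpnmb at 3.26 and 81.4 CPM. A sub-cluster led by Ppbp and Gpnmb held 40 of its 249 cells titled Control and 215 of its 351 titled Blood. Another, of 62 and 74 cells, had the monocyte genes Ly6c2, Plac8 and Hp among its leading genes. A further one, of 48 and 34 cells, had the lymphocyte genes Gzmb, Nkg7 and Cd3d among them. Cluster 12 was thus a mixture, and the part of undetected doublets in it was not tested. Within the 5 sub-clusters of 20 or more cells in at least 1 library, the median log2 ratio of the measured genes was 0.25, 0.07, -0.08, 0.29 and -0.00. The sub-cluster at 0.29 held 60 cells titled Control and only 6 titled Blood. In the Ppbp and Gpnmb sub-cluster, at 0.25, 10 of 34 genes were at least 1.5-fold higher, against 24.9% of all measured genes, and 1 was lower, against 16.3%. When CPM were computed per cell and then averaged, 6 genes of cluster 12 passed the limit. Retnla, C1qa, Gpnmb and the sub-clusters were chosen after their values were seen.

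In osteoclast-like cells 2 of the 34 genes were at least 1.5-fold higher titled Blood, against 6.07% of all measured genes, and none was lower, against 4.21%. They were Ctsl, at 275 and 634 CPM with a ratio of 2.30 (2.06 to 2.57), and Ctsc, at 232 and 391 CPM with a ratio of 1.69 (1.49 to 1.92). Both are higher in macrophage-like than in osteoclast-like cells, and the C1q share named above was higher in the same library, at 12.2% against 6.35%. Its part in these ratios was not tested. Ctsk, Atp6v0d2 and Acp5 were lower titled Blood by small factors. Their ratios were 0.880 (0.855 to 0.905), 0.793 (0.724 to 0.867) and 0.976 (0.953 to 0.9997). Other osteoclast-associated genes went both ways. Mmp9, at 3493 and 3876 CPM, Nfatc1, at 451 and 580 CPM, and Atp6v1b2, at 851 and 936 CPM, were higher titled Blood. So were Itgb3, at 26.3 and 52.2 CPM, and Oscar, at 65.8 and 90.9 CPM. Ocstamp, at 315 and 253 CPM, Dcstamp, at 149.9 and 128 CPM, Tcirg1, at 399.5 and 331 CPM, and Calcr, at 2.03 and 0 CPM, were lower. The remaining markers of the list are not reported here. The median log2 ratio of the 34 genes was -0.05 against 0.04 over all genes.

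In neutrophil-like cells 6 of 33 measured genes were at least 1.5-fold higher titled Blood, against 20.5% of all measured genes, and 1 was lower, against 14.3%, so neither count stood above its background. Ctsl, at 112 and 274 CPM, had a ratio of 2.45 (1.70 to 3.69), and Atp6v1a, at 177 and 293 CPM, had one of 1.66 (1.23 to 2.28). Atp6v1b2 had a ratio of 1.54 (1.12 to 2.17), Hexa of 1.77 (1.06 to 3.19), Neu1 of 1.65 (1.02 to 2.87) and Tfeb, the lower gene, of 0.572 (0.356 to 0.964). Tfec had 1 count titled Control and 35 titled Blood, a ratio of 2.84 (0.477 to 115). The 129 cells titled Control limit all of these values.

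In classical monocyte-like cells 1 gene was higher, Tfec at 33.2 and 55.1 CPM with a ratio of 1.66 (1.33 to 2.08), against 0.725% of all measured genes, and none was lower, against 0.782%. In non-classical monocyte-like cells Mcoln1 and Tfec were higher, against 7.19%, with intervals that held 1, and none was lower, against 6.06%. In migratory DC-like cells Ctsl, at 95.9 and 159.9 CPM with a ratio of 1.67 (1.21 to 2.31), and Neu1, at 26.02 and 60.4 CPM with a ratio of 2.32 (1.29 to 4.31), were higher, against 13.1%, and none was lower, against 8.12%. In mesenchymal-like cells Ctss alone was higher, at 125 and 225 CPM with a ratio of 1.80 (1.63 to 2.0), against 1.21%, and none was lower, against 1.83%. Ctss is a myeloid transcript in these data, and the C1q share of mesenchymal-like cells was 4.86% and 7.73%. The part of free RNA in this ratio was not tested. In T cell-like cells none was higher, against 1.05%, and none lower, against 1.13%. In NK cell-like cells none was higher, against 2.5%, and Cd68, at 33.3 and 19.8 CPM with a ratio of 0.594 (0.398 to 0.877), was lower, against 1.98%.

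In conventional DC-like cells none of 29 measured genes was at least 1.5-fold higher titled Blood, against 1.94% of all measured genes, and 2 were lower, against 1.63%. Acp5 stood at 48.6 and 22.3 CPM, with the ratio 0.459 (0.329 to 0.632), and Cd63 at 60 and 32.9 CPM, with the ratio 0.548 (0.415 to 0.718). Both are macrophage-high relative to this class, and the C1q share was also lower titled Blood, at 6.35% and 2.41%, but its part in these ratios was not tested. The lower Cd63 was not shared by all sub-clusters of the class. Cd63 stood at 218 and 53.4 CPM in sub-cluster 4 and 153 and 28.9 CPM in sub-cluster 5, where C1qa stood at 1177 and 359.8 CPM and 771 and 41.97 CPM. In sub-cluster 2 Cd63 was lower too, at 31.04 and 5.30 CPM from 10 and 2 counts, with C1qa at 77.6 and 55.7 CPM. Cd63 was higher titled Blood in sub-clusters 0, 1 and 3, at 13.6 and 32.9 CPM, 38.4 and 56.8 CPM and 9.56 and 19.04 CPM. These levels rest on 11 and 22, 25 and 25 and 4 and 6 counts. The intervals overlapped between titles in sub-clusters 0, 1, 2 and 3, so the direction of Cd63 in them is uncertain. Within the class, the sub-cluster with the highest level of Xcr1, the chemokine receptor of cross-presenting DCs, held 30 and 23 cells, with Xcr1 at 329.8 and 187 CPM. Its Psap level was 3312 and 3043 CPM, above each of the other 5 sub-clusters in both libraries, while its Ctsc level was 177 and 114 CPM and its Ctsh level 237 and 311 CPM, below each of them. The other sub-clusters ranged from 972 to 2331 CPM for Psap and from 299 to 962 CPM for Ctsc. These sub-clusters were singled out after their values were seen.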

How the data were processed

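The files deposited by the authors hold raw UMI counts for each gene in each barcode. Per the submitters' processing notes they used Cell Ranger 3.1.0 and the mm10 genome, and the file headers name the same software; the annotation release and barcode-calling setting were not given in the sources used here. Barcodes were kept at 300 or more genes, 500 or more UMIs and no more than 20% mitochondrial UMIs. Scrublet, run in scanpy 1.11.5, marked 1.80% and 2.38% as doublets, against expected shares of 7.58% and 9.65%, and these were removed. Cells of both libraries were clustered jointly, without the 34 genes, on 2000 variable genes, 30 components and 15 neighbours (Leiden resolution 1), and classes were named from 19 marker lists. The score limits for naming (at least 0.5, with a margin of 0.35) were set after the data were seen, and clusters that met no rule stayed unnamed (2.52% and 2.87% of cells). B cell-like, plasmacytoid DC-like and mast cell-like cells, with fewer than 50 cells in a library, entered no comparison between titles.

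Of the 31053 gene IDs, 31011 were found in GENCODE M21 (GRCm38), which gave the gene positions. UMIs were summed per class and library and divided by the class total. Ratios carry exact conditional binomial intervals, levels exact Poisson intervals and shares exact Clopper-Pearson intervals, all at 95% and for counting error only. Differences were counted at 1.5-fold after adding 5 CPM, among genes with at least 10 CPM and 10 counts in either group. With 1 library per title no test between titles is possible. The counting and interval steps were run on simulated Poisson counts, which follow the same model that the intervals assume. That run cannot test variation between cells, tumours or libraries. The 34 genes, the lists and the cell classes were chosen with earlier results of these data known. By the naming rule, all 34 are given in macrophage-like cells, and elsewhere the genes highest in a class or past 1.5-fold with an interval that excludes 1. From the other lists at most 3 genes each way are named, with fixed partner genes, of which some are not reported here. The alternatives are given in the closing section.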

Additional observations from a re-analysis of the deposited data

Results flagged for a closer look

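Lipa, the acid lipase gene, differed between titles in opposite directions in 2 macrophage-like clusters. In the Retnla-led cluster 12 it stood at 116 and 184 CPM, a log2 ratio of 0.65 (titled Blood against titled Control, after adding 5 CPM), and in the Hmox1- and Mmp12-led cluster 8 at 253 and 157 CPM, a log2 ratio of -0.67. With 1 library per title, the difference between the clusters was not tested.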

How the results depend on the processing

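No recomputed single-gene value past the 1.5-fold limit changed sign under any alternative run. Those recomputed were the macrophage-like ratios between titles and, between osteoclast-like and macrophage-like cells, the ratios of Ctsk, Acp5 and Atp6v0d2. Ratios of single genes between titles in the other classes and in single clusters were not recomputed. The median log2 ratio of the 34 genes in macrophage-like cells was 0.08, and 0.048 with each library clustered on its own, 0.053 with clusters at equal weight and 0.15 with CPM averaged over cells. The count of genes at least 1.5-fold higher titled Blood in that class was 1, and 2 with own clustering and 0 with equal weight. In osteoclast-like cells the median was -0.05, and 0.11 with the 34 genes kept in the clustering. The count higher in osteoclast-like than in macrophage-like cells titled Blood was 6, and 11 with the 34 genes kept in the clustering and 12 with CPM averaged over cells. In cluster 12 the count higher titled Blood than titled Control was 11, and 6 with CPM averaged over cells. Against the other macrophage-like cells titled Control it held 4 higher and 2 lower, and 8 and 1 with CPM averaged over cells. The count lower in cluster 8 titled Control was 2, and 0 with the median of all genes set to 0. The cause of these shifts was not tested. Resolution 2, doublets kept, cells of at least 5000 UMIs, a pseudocount of 1 CPM, no minimum level and leaving out shared barcodes moved none of the summary results recomputed under them. Log2 ratios of single genes moved beyond their counting interval more often: 27 of 40 with CPM averaged over cells, 25 of 40 with equal weight, 16 of 34 with own clustering, 7 of 40 without shared barcodes or at resolution 2, and 6 or fewer under each other alternative. Shares of cells with a UMI moved in 20 of 24 cases on thinning to 1500 UMIs. Thinning removes UMIs and so lowers such shares by itself, and these moves are no measure of stability. Depth limits the neutrophil-like and migratory DC-like values. The alternatives for the clusters, for osteoclast-like against macrophage-like cells and for shared barcodes were chosen after seeing the data. No paired analysis was possible because each title has 1 library.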
